A study of Homo sapiens with 8 samples.

Results

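Bidirectional promoter window pairs are places where 2 genes start back to back, one on the minus strand and one on the plus strand, so that a single stretch of DNA lies upstream of both. The 38157 promoter windows of the study were searched for pairs on chromosomes 1 to 22 in which a minus-strand window and a plus-strand window carried different gene IDs, were both 2100 bases wide, and had start sites 0 to 1000 bases apart with the plus-strand start downstream. The rule found 23 pairs, made of 46 windows, and used no measured value. All 46 windows had enough reads to be tested. Each window runs from 2000 bases upstream to 100 bases downstream of its start site in hg19, so the 2 windows of a head-to-head pair overlap and reads between the starts count in both. The 23 pairs shared between 204 and 1038 bases (median 356), and their starts lay 4 to 838 bases apart (median 156).

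The study profiled trimethylated lysine 9 of histone H3 (H3K9me3) in SiHa, an established squamous carcinoma line of the cervix. Cells were seeded in transwell plates, and after 10 h those that had passed the porous membrane (migrated) were collected apart from those that had not (non-migrated). Chromatin immunoprecipitation (ChIP) with an H3K9me3 antibody and a matching input without antibody were sequenced from each fraction in 2 paired replicate sets. The groups were therefore H3K9me3 of migrated cells, H3K9me3 of non-migrated cells, input of migrated cells and input of non-migrated cells, with n = 2 each. All 4 groups come from 1 cell line, for which the labels name no engineered allele, grown in DMEM with serum, and each fraction is a bulk of many cells. The kit differed between the sets (Illumina TruSeq with gel extraction in set 1, an NEB kit with beads in set 2) but not between the fractions. For the set 1 H3K9me3 library of migrated cells, the title and the description disagree on the replicate number, and its title was used. No expression was measured, so neither the identity of the cells nor the activity of the named genes could be checked. Reads in windows numbered 88028 and 164766 in the set 1 H3K9me3 libraries of migrated and non-migrated cells and between 388191 and 1729061 in the other 6 libraries.

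Head-to-head genes are common in the human genome. Their shared promoters are usually CpG islands, which in most cell types stay free of DNA methylation and are bound by transcription machinery pointing both ways. H3K9me3 is the opposite kind of chromatin. It is written by SUV39H1, SUV39H2 and SETDB1, is bound by heterochromatin protein 1, and is known for silencing repeats, zinc finger gene clusters and genes of other lineages. The title of the series names Suv39H1 and migratory cells, and the comparison of the fractions addresses whether this mark differs between cells that migrate and cells that do not.

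The names of the windows need care. The files give each window 1 gene name, which can be that of a neighbour, and 1318 other head-to-head pairs carry one ID for both windows, so only 23 pairs had different IDs. In 14 of the 23 plus-strand windows, and in 1 of the 23 minus-strand windows, another window of the same name and strand lay further upstream, so the start site need not be that of the named gene. These plus-strand windows are UFC1, RP11-281O15.3, PPP2R5D, EXOC6, ALDH3B1, KLC2, SF3B2, NCAPD2, C14orf45, FAM195A, RAB26, GAPDHS, LIN7B and IFNAR2. The minus-strand window is MSLN. The MSLN window, for example, is 1 of 13 windows with that name, which lie on both strands. Of 50 textbook head-to-head gene pairs, 0 met the rule, while 16 included a gene that names a pair with one ID. Of the 46 windows, 15 had names that match a symbol pattern for clone-based transcripts and small RNAs, 12 of them on the minus strand. The pattern does not cover AD000090.2, which also has a clone-based name. The pairs lay on 13 chromosomes, with 5 on chromosome 11, 4 on chromosome 19 and 3 on chromosome 16.

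RefSeq promoters of GRCh38.p14 (250 bases before to 50 after a start) were used to show the sequence at these loci. RefSeq knew 31 of the 46 names and held a promoter for 22. At 13 of the 23 pairs it lists a head-to-head pair at or next to a named gene, 7 of them with the same minus-strand gene name. The search reached 6000 bases beyond a named gene and kept the pair with the closest starts. It left out pairs whose plus-strand gene was the one naming the plus-strand window. That the plus-strand names below differ from those of the windows was therefore fixed in advance. The RefSeq plus-strand gene was PRDX5 at the window named ESRRA, KLHDC3 at PPP2R5D, GRK4 at C4orf10, NDUFS8 at ALDH3B1, RAB1B at KLC2, LIN52 at C14orf45, WDR90 at FAM195A, TRAF7 at RAB26, CNTD1 at WNK4, RPS28 at AC010323.1, PPFIA3 at LIN7B, MAP2K7 at LRRC8E and IL10RB at IFNAR2. Roles given below are those of the named genes. The hg19 windows and the GRCh38.p14 promoters were not aligned, so it was not checked that they hold the same bases. The 5 promoters below come from these 13 loci, and each is read on the plus strand. Capitals mark the bases from the start of the minus-strand gene to the start of the plus-strand gene. RPS28 encodes a ribosomal protein and faces away from NDUFA7, a subunit of respiratory complex I. CNTD1, a cyclin-like gene of meiosis, faces away from COA3 (CCDC56), an assembly factor of cytochrome c oxidase. PRDX5, a peroxiredoxin, is paired with TRMT112, a partner subunit of several methyltransferases. IL10RB, a receptor chain for interleukin-10 and lambda interferons, is paired with a divergent transcript, and GRK4, a kinase of G protein-coupled receptors, with the ribosome assembly factor NOP14.
RPS28: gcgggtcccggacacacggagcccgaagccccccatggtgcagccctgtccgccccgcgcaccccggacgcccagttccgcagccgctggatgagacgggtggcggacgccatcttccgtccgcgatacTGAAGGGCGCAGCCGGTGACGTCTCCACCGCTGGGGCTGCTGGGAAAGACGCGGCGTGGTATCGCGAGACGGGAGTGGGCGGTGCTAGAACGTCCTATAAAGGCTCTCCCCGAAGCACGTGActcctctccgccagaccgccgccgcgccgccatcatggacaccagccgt
CNTD1: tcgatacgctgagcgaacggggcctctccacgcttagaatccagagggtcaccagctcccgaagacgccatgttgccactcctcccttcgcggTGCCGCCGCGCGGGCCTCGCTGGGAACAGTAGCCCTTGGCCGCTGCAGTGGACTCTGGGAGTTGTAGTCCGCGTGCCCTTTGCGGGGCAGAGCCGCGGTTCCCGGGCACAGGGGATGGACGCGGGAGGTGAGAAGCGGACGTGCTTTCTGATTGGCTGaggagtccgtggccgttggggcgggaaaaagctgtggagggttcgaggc
PRDX5: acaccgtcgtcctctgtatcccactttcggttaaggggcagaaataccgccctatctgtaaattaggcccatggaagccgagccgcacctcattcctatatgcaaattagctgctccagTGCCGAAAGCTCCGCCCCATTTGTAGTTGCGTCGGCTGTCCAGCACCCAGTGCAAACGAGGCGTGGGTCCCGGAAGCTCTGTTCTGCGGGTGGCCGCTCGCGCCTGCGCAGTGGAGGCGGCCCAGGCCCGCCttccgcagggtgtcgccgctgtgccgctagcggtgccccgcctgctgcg
IL10RB: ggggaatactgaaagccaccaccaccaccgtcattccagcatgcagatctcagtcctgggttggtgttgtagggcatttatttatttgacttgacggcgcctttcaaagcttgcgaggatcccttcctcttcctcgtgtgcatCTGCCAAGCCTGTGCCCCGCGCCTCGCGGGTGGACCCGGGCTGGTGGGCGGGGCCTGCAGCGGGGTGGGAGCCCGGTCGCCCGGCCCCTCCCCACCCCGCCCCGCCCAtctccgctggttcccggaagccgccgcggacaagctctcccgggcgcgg
GRK4: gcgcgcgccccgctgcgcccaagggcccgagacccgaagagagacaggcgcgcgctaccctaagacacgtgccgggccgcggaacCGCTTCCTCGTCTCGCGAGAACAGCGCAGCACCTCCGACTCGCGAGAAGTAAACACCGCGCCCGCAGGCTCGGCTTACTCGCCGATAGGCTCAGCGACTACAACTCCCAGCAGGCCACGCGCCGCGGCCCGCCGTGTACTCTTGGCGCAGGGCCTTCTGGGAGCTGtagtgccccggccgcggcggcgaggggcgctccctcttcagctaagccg

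In GRCh38.p14 these promoters lie at chr19:8321246-8321545 (RPS28), chr17:42798611-42798910 (CNTD1), chr11:64317871-64318170 (PRDX5), chr21:33266117-33266416 (IL10RB) and chr4:2963321-2963620 (GRK4). The RefSeq starts of these 5 pairs lay 121, 157, 131, 107 and 165 bases apart in the order printed. The start sites of the matching windows lay 104 bases apart for NDUFA7 and AC010323.1, 150 for CCDC56 and WNK4, 4 for TRMT112 and ESRRA, 98 for AP000295.9 and IFNAR2, and 223 for NOP14 and C4orf10. The printed promoters hold 38, 29, 27, 25 and 43 CpG dinucleotides in 300 bases. The 13 loci hold neither of the 2 pairs called enriched below nor AD000090.2 with GAPDHS, so the composition of those pairs is not described here. Over the 26 RefSeq promoters at the 13 loci, the median was 29.5 CpG, against 28 in 6255 other RefSeq head-to-head promoters and 9 in 28835 promoters outside such pairs. The ratio of observed to expected CpG was above 0.6 in 25 of the 26 (96.2%), against 85.0% of other head-to-head promoters and 48.8% of all 35116 RefSeq promoters.

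Short motifs were searched on both strands of the same 300 bases, as a description of the letters and not of factor binding. The GC box core GGGCGG was in 21 of 26 promoters (80.8%), against 69.6% of other head-to-head promoters and 45.0% of all promoters. CCAAT was in 12 (46.2%), against 35.0% of other head-to-head promoters and 34.6% of all. The ETS core CCGGAAG was in 7 (26.9%), against 20.8% and 10.3% in the same order, and it stands in the capitals of the PRDX5 promoter above. TATAAA was in 3 (11.5%), against 4.01% of other head-to-head promoters and 11.5% of all, and the RPS28 promoter holds it in its capitals. These motifs do not contain one another, and the promoters of the 2 genes of a pair overlap, so their counts are not independent.

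H3K9me3 was depleted in most windows of these pairs. Reads were counted over whole windows, of which the stretch shared with the partner made up 9.71% to 49.4%. The rest of each window lies beyond the partner's start, on the partner's downstream side. Depletion of the shared stretch alone was therefore not measured. Against input, with both fractions averaged, 40 of the 46 windows were lower (87.0%, with 35.2% of all 36440 tested windows lower), 4 were enriched (8.70%, with 15.8% of all tested windows enriched) and 2 were not called. Calls are from limma across all tested windows at a Benjamini-Hochberg adjusted p of 0.05, and log2 values are relative to the centre that library scaling (TMM) sets. The median window of a pair lay at log2 -2.14, or 0.226 times input, against a median of -0.34 in all other tested windows. A bulk ChIP cannot tell fewer cells with the mark from less mark per cell. Under library sizes implied by the deposited values, 41 member windows were lower and 2 enriched, and all tested windows split into 19688 lower and 340 enriched, against 12821 lower and 5771 enriched with TMM. That scaling placed the median at -3.08 in member windows and -1.29 in other windows, so the distance between them was -1.78, against -1.80 with TMM.

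The reads show the depletion directly in the deeper set 2. The median window of a pair had 6 H3K9me3 reads in migrated and 9.5 in non-migrated cells, against 17 and 22 in the median window of all, while input gave 58.5 and 67 reads in the pairs against 40 and 40 in all windows. In this set input was higher at the pairs than in the median window while H3K9me3 was lower. In set 1 the H3K9me3 libraries were shallow, with a median of 0 reads in migrated and 1 in non-migrated cells over the 46 windows, and 28 of the 46 (60.9%) had no read in migrated cells. Of the 40 lower windows, 37 were below input in all 4 pairs of an H3K9me3 library with its input, and the 4 enriched windows were above input in all 4.

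Other head-to-head windows were mostly lower as well. The 2600 tested windows of pairs with one ID had a median of log2 -1.91, with 71.6% lower and 7.88% enriched. Windows whose starts face each other within 2000 bases (2521 tested) had a median of -1.55, with 65.2% lower and 8.09% enriched. Autosomal windows of the same width in neither head-to-head class (31275 tested) had a median of -0.30, with 33.0% lower and 15.6% enriched. This last class includes the windows of facing starts. The difference between the classes as lists was not tested, and head-to-head windows are not independent, since partners share bases.

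**Figure D1:**
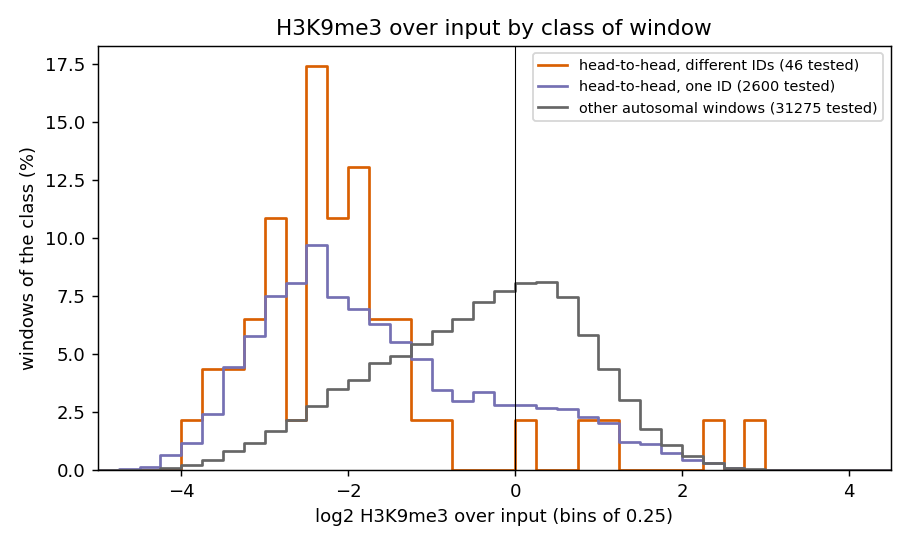
Percent of the windows of a class (vertical axis) by log2 H3K9me3 over input in bins of 0.25 (horizontal axis), for the 46 windows of head-to-head pairs with different IDs, the 2600 tested windows of pairs with one ID and 31275 other autosomal windows. Both head-to-head classes peak to the left of -2, while the other windows peak near 0, and 4 member windows lie at 0.92 or above.

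Within a pair, both windows usually had the same call. Both were lower in 19 of the 23 pairs (82.6%), against 63.0% of the 1320 tested head-to-head pairs of either kind, and both were enriched in 2 (8.70%, against 5.45%). In the other 2 pairs only the partner was called lower, with GAPDHS and NOP14 as the windows without a call. No pair had windows called in opposite directions, while 10 of 1297 tested pairs with one ID did. Across the 23 pairs the log2 values of the 2 windows correlated at Pearson r 0.79 and Spearman rho 0.45, but r was 0.27 over the 21 pairs that were not enriched. The points share libraries and between 204 and 1038 bases each, so the correlation is a description only. The median absolute difference within a pair was 0.50 on the log2 scale, against 0.74 in pairs with one ID and 0.80 in facing pairs. Windows of facing pairs shared a median of 0 bases (at most 198), against 356 in the 23 pairs and 350 in pairs with one ID. Partners in facing pairs thus have few or no reads in common.

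**Figure D2:**
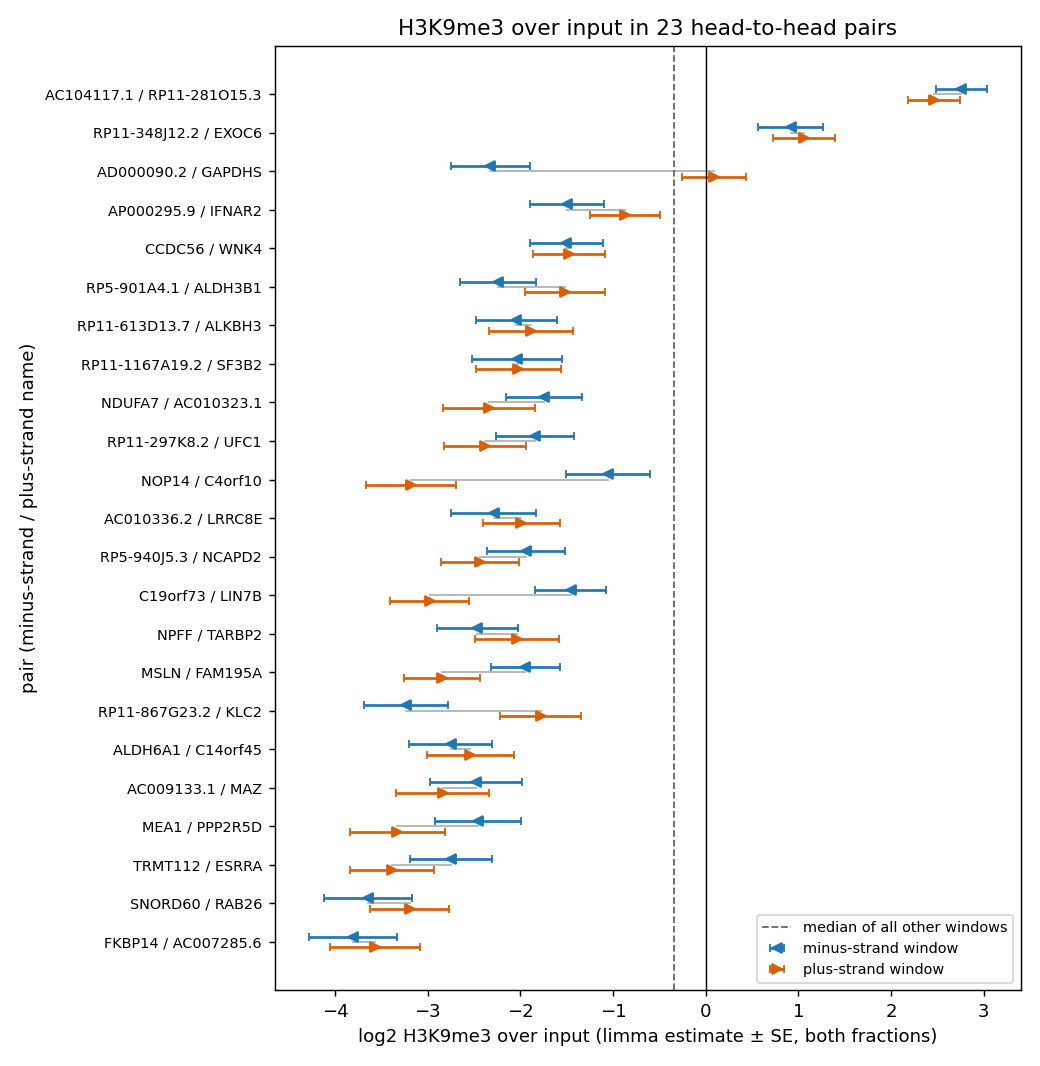
Log2 H3K9me3 over input (limma estimate ± SE, both fractions, n = 2 libraries per group) of the minus-strand and plus-strand window of each of the 23 pairs, ordered by the mean of the 2. Of the pairs, 2 lie right of 0 and 19 have both windows called lower, down to -3.81 at FKBP14, and the widest gap between partners is at GAPDHS.

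The highest pair was AC104117.1 with RP11-281O15.3, both names of unnamed transcripts on chromosome 5, whose starts lay 108 bases apart. The AC104117.1 window (chr5:178367984-178370084, minus strand) had 17 and 238 H3K9me3 reads in sets 1 and 2 of migrated cells and 15 and 222 in those of non-migrated cells, against 15 and 54 input reads for migrated and 6 and 41 for non-migrated cells. The RP11-281O15.3 window (chr5:178366192-178368292, plus strand) had 11 and 212 H3K9me3 reads in migrated and 16 and 228 in non-migrated cells, against 13 and 47 input reads for migrated and 8 and 60 for non-migrated cells. In set 2 every H3K9me3 library exceeded its input in raw reads although it was the shallower library. The log2 enrichment was 2.76 ± 0.27 (SE; limma adjusted p = 5.9e-09) at AC104117.1 and 2.46 ± 0.28 (adjusted p = 7.2e-08) at RP11-281O15.3. These values placed the windows at the 99.9 and 99.8 percentiles of all tested windows.

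The other enriched pair was RP11-348J12.2 with the window named for EXOC6, a subunit of the exocyst that tethers secretory vesicles. Another window named EXOC6 lies further upstream on the same strand, so the start site here need not be that of this gene. The starts of the pair on chromosome 10 lay 838 bases apart, the widest spacing among the 23. The EXOC6 window (chr10:94819021-94821121) had 8 and 64 H3K9me3 reads in migrated cells and 4 and 82 in non-migrated cells, against 16 and 45 input reads for migrated and 7 and 58 for non-migrated cells. The RP11-348J12.2 window had 3 and 74 H3K9me3 reads in migrated and 6 and 98 in non-migrated cells, against 16 and 62 input reads for migrated and 4 and 81 for non-migrated cells. Enrichment was log2 1.06 ± 0.34 (adjusted p = 0.0092) at EXOC6 and 0.92 ± 0.35 (adjusted p = 0.027) at RP11-348J12.2. Neither window was called under the scaling implied by the deposited values (log2 0.15 at EXOC6 and 0.056 at RP11-348J12.2, with adjusted p of 0.821 and 0.937). Without the set 1 input of non-migrated cells the adjusted p values were 0.064 at EXOC6 and 0.219 at RP11-348J12.2. EXOC6 was also lost without the set 2 H3K9me3 library of non-migrated cells (adjusted p = 0.125), and RP11-348J12.2 without the set 2 input of migrated cells (0.053) and in a quasi-Poisson model of the reads (0.117). The windows share 1038 bases, so many of their reads are the same reads.

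At the other end stood FKBP14, which encodes a prolyl isomerase of the endoplasmic reticulum that acts on collagens, with AC007285.6. The FKBP14 window (chr7:30066200-30068300) had 0 and 0 H3K9me3 reads in sets 1 and 2 of migrated cells and 1 and 1 in those of non-migrated cells, against 23 and 53 input reads for migrated and 9 and 55 for non-migrated cells. Over the 4 H3K9me3 libraries this is 2 reads against 140 input reads, and AC007285.6 had 2 against 112. The estimates were log2 -3.81 ± 0.48 and -3.57 ± 0.49, which at so few reads depend on the 0.5 added to each count. In set 2 the reads per library size at FKBP14 were 0.0141 times input, with an exact 95% interval of 0.00035 to 0.0805 that covers counting error only.

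The next pairs in rank were named for a small nucleolar RNA and for protein-coding genes of several functions. SNORD60, a small nucleolar RNA, and RAB26, a GTPase of secretory vesicles, had 5 and 17 H3K9me3 reads in all, against 205 and 253 input reads, and lay at log2 -3.65 ± 0.47 and -3.20 ± 0.42. TRMT112 and ESRRA, an orphan nuclear receptor active in mitochondrial metabolism, had 15 and 8 H3K9me3 reads against 196 and 215 input reads and lay at -2.75 ± 0.44 and -3.39 ± 0.45. The starts of this pair were the closest of the 23, and the PRDX5 promoter printed above is the RefSeq partner of TRMT112. MEA1 and PPP2R5D, a regulatory subunit of protein phosphatase 2A, had 7 and 2 H3K9me3 reads against 89 and 93 input reads and lay at -2.46 ± 0.46 and -3.33 ± 0.51. All these windows were lower in both fractions.

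A further 6 pairs ranked among the 10 lowest. AC009133.1 and MAZ, a zinc finger transcription factor, lay at log2 -2.48 and -2.84. ALDH6A1, a mitochondrial enzyme of valine breakdown, and C14orf45 lay at -2.75 and -2.54. RP11-867G23.2 and KLC2, a kinesin light chain, lay at -3.24 and -1.78. MSLN, the surface glycoprotein mesothelin, and FAM195A lay at -1.95 and -2.85, and NPFF, a neuropeptide precursor, and TARBP2, a partner of Dicer, at -2.46 and -2.04. The last of the 10, C19orf73 and LIN7B, a scaffold protein of cell polarity, lay at -1.46 and -2.98. All 12 windows had an adjusted p of 0.00213 or less, and 5 of the 46 windows had under 5 H3K9me3 reads in all.

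Further windows were called lower. NCAPD2, a condensin subunit, lay at log2 -2.44, SF3B2, a subunit of the spliceosome, at -2.02, and UFC1, the conjugating enzyme of the UFM1 pathway, at -2.39. Their partners RP5-940J5.3, RP11-1167A19.2 and RP11-297K8.2 lay at -1.94, -2.04 and -1.85. ALKBH3, which repairs alkylated DNA, was the 1 member of a list of DNA repair and replication genes and lay at -1.89; of the 286 tested windows of that list 59.4% were lower. NDUFA7 was the 1 member of the mitochondrial list and lay at -1.75, with 61.6% of the 216 tested windows of that list lower. ALDH3B1, an aldehyde dehydrogenase, and its partner RP5-901A4.1 lay at -1.52 and -2.24, LRRC8E and AC010336.2 at -1.99 and -2.29, and the partners of ALKBH3 and NDUFA7, RP11-613D13.7 and AC010323.1, at -2.05 and -2.34. Replication-dependent histones, collagens and C2H2 zinc finger genes, matched by the symbol prefixes ZNF, ZFP, ZSCAN and ZKSCAN, had 0 members. MAZ is a zinc finger gene that these prefixes do not match.

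The pairs nearest to input among those called lower were AP000295.9 with IFNAR2, a chain of the type I interferon receptor, and CCDC56 with WNK4, a kinase that regulates renal salt transport. IFNAR2 had 2 and 15 H3K9me3 reads in migrated and 2 and 21 in non-migrated cells, against 19 and 52 input reads for migrated and 13 and 56 for non-migrated cells. Its log2 of -0.87 ± 0.37 passed the threshold barely (adjusted p = 0.0498) and did not pass in 9 of 15 alternative fits, among them those without the set 1 H3K9me3 library of either fraction, without any one of the 4 inputs and without the set 2 H3K9me3 library of migrated cells. IL10RB, printed above, belongs to the RefSeq head-to-head pair found near IFNAR2, but its start was not aligned to this window. Further upstream lie 2 other windows named IFNAR2. AP000295.9 lay at -1.50 ± 0.40, and CCDC56 and WNK4 at -1.51 ± 0.39 and -1.48 ± 0.39.

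Besides IFNAR2 and the windows of EXOC6 and RP11-348J12.2, 11 called windows lost their call in at least 1 alternative fit, all with the same direction. Without the set 1 H3K9me3 library of non-migrated cells, ALDH3B1 lay at log2 -0.59 (adjusted p = 0.266), AC010323.1 at -0.89 (0.084), SF3B2 at -1.03 (0.052) and WNK4 at -0.97 (0.053). ALDH3B1 was also lost without the set 2 H3K9me3 library of migrated cells (-0.76, adjusted p = 0.114), without the set 2 input of migrated cells (-1.05, 0.091) and without the replicate block (-1.12, 0.083). Without the set 2 input of non-migrated cells the calls of ALKBH3 (-1.24), TARBP2 (-1.33), NDUFA7 (-1.32) and CCDC56 (-1.03) were lost, with adjusted p from 0.064 at NDUFA7 to 0.118 at CCDC56. Without the set 2 input of migrated cells those of KLC2 (-1.24), RP11-1167A19.2 (-1.36) and AP000295.9 (-0.98) were lost, with adjusted p from 0.070 at RP11-1167A19.2 to 0.089 at AP000295.9. CCDC56 was lost as well without the set 1 input of migrated cells (-1.28, adjusted p = 0.058) and without the replicate block (-1.02, 0.055). Other estimates moved by over 1.5 times but kept their call. Without the set 1 H3K9me3 library of migrated cells C14orf45 lay at -1.45, RP11-613D13.7 at -1.30, RP11-1167A19.2 at -1.33, TARBP2 at -1.18 and AP000295.9 at -0.90. Without that of non-migrated cells AC009133.1 lay at -1.55 and ALKBH3 at -1.12, and without the set 2 H3K9me3 library of migrated cells SF3B2 lay at -1.21 and AC010323.1 at -1.07. With the deposited constants AC104117.1 lay at 1.83 and RP11-281O15.3 at 1.54.

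Of the 15 windows whose names match the pattern for clone-based transcripts and small RNAs, 12 were lower and 3 enriched, with a median of log2 -2.05. Over all 11186 tested windows that match it, 20.4% were lower, 24.2% were enriched and the median was 0.18. The 31 windows with other names, AD000090.2 among them, had 28 lower, 1 enriched and 2 without a call, with a median of -2.33. The 23 minus-strand and 23 plus-strand windows each had 20 lower and 2 enriched, with medians of -2.05 and -2.34.

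Calls were alike in number in close and wide pairs, and the difference was not tested. The 15 pairs with starts at most 300 bases apart had 26 of 30 windows lower and a median of log2 -2.04, and the 8 wider pairs 14 of 16 and -2.37. The median absolute difference within a pair was 0.63 in the closer pairs and 0.27 in the wider ones, which share more bases. Just beyond the rule stood RP11-395B7.2 with MUC3A, a mucin gene, the next pair of different IDs at 1494 bases, with windows at 0.13 and -0.41 and no call.

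The 2 windows of a pair differed by test in 1 of the 23 pairs (4.35%), against 4.66% of the 2792 neighbouring pairs tested. The difference was taken within each library, plus-strand minus minus-strand window, and fitted with limma over all neighbouring pairs. The pair was AD000090.2 with GAPDHS on chromosome 19, 127 bases apart. Another window named GAPDHS lies further upstream on the same strand, so the start site here need not be that of this gene. GAPDHS encodes the glyceraldehyde-3-phosphate dehydrogenase of sperm. Its window (chr19:36034532-36036632) had 2 and 48 H3K9me3 reads in sets 1 and 2 of migrated cells and 6 and 62 in those of non-migrated cells, against 18 and 101 input reads for migrated and 5 and 112 for non-migrated cells. The AD000090.2 window (chr19:36036305-36038405) had 1 and 3 H3K9me3 reads in migrated and 2 and 9 in non-migrated cells, against 26 and 91 input reads for migrated and 8 and 101 for non-migrated cells.

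GAPDHS thus stood near input at log2 0.086 ± 0.34, while AD000090.2 was lower at -2.33 ± 0.43. In all 4 H3K9me3 libraries the GAPDHS window had more reads than its partner, with similar input. The difference was 2.39 ± 0.39 on the log2 scale (limma adjusted p = 0.0436), or 5.25-fold. The call was close to the threshold. The adjusted p was 0.062 with the deposited constants, 0.055 without a filter on low windows and 0.099 without precision weights. Leaving out any one of the 4 inputs gave 0.225 to 0.305, and leaving out the set 1 H3K9me3 library of non-migrated cells gave 0.051. The difference itself stayed between 1.94 and 2.89 in all these fits and the remaining ones.

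Unadjusted p values under 0.05 were found in 4 of 23 pairs (17.4%), against 28.5% of all neighbouring pairs. Besides GAPDHS these were C19orf73 with LIN7B, NOP14 with C4orf10 and RP11-867G23.2 with KLC2, and none of the 3 passed adjustment. The log2 difference of LIN7B minus C19orf73 was -1.52 ± 0.41 (adjusted p = 0.083), with 1 and 6 H3K9me3 reads at LIN7B in migrated and 0 and 9 in non-migrated cells, against 1 and 7 at C19orf73 in migrated and 3 and 21 in non-migrated cells. For KLC2 minus RP11-867G23.2 it was 1.48 ± 0.46 (adjusted p = 0.111), with 25 H3K9me3 reads in all against 8. The difference of C4orf10 minus NOP14 was -2.14 ± 0.71 (adjusted p = 0.124), with 0 and 3 H3K9me3 reads in migrated and 0 and 1 in non-migrated cells, against 2 and 16 at NOP14 in migrated and 0 and 10 in non-migrated cells. The C4orf10 window was lower at -3.18 ± 0.48, while NOP14 at -1.05 ± 0.45 missed the threshold (adjusted p = 0.0504), and the GRK4 promoter printed above is the RefSeq partner of NOP14. The next smallest p values belonged to MSLN with FAM195A (-0.89 ± 0.37), MEA1 with PPP2R5D (-0.87 ± 0.47) and RP11-297K8.2 with UFC1 (-0.57 ± 0.43), and on the plus side to AP000295.9 with IFNAR2 (0.61 ± 0.48) and SNORD60 with RAB26 (0.49 ± 0.40), all with an adjusted p of 0.195 or more.

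**Figure D3:**
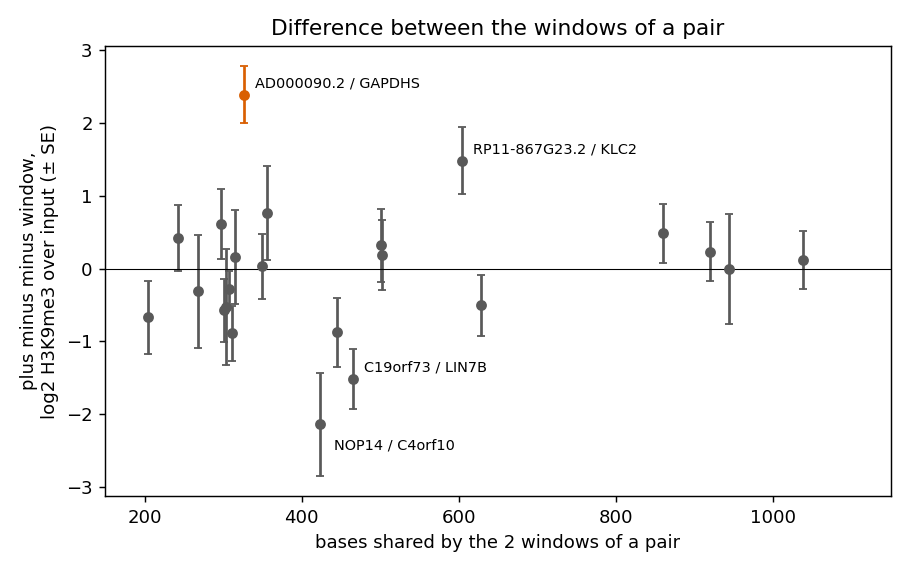
Log2 difference in H3K9me3 over input between the plus-strand and the minus-strand window (± SE, limma) of each pair against the bases the 2 windows share. The orange point is AD000090.2 with GAPDHS at 2.39, the 1 pair called, and the other labelled pairs had an unadjusted p under 0.05.

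No window of a pair was called changed between migrated and non-migrated cells. The change corrected for input, migrated over non-migrated, was called in 0 of 46 windows, with 0.0% of all 36440 tested windows called by limma. At an unadjusted p under 0.05 there were 2 of 46 (4.35%), against 3.52% of all windows, and a quasi-Poisson model of the reads called 0 members and 0 of all windows. The change was above 0 in 23 windows and below 0 in 23, with a median of log2 -0.041, against -0.013 in all windows. The difference between partners also did not pass the threshold for a change between fractions in any pair (0 of 23, with 0.0% of neighbouring pairs called). With 2 sets, a permutation test of a single value cannot reach 0.05.

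Calls within each fraction were alike in number. In migrated cells 36 of the 46 windows were lower (28.3% of all windows were) and 3 enriched (12.9% of all), and in non-migrated cells 36 were lower (23.6% of all) and 2 enriched (8.41% of all). In both fractions 32 of the 46 windows were lower. The same share over all windows can be at most the 23.6% that were lower in non-migrated cells. In set 2 the median over the 46 windows was log2 -2.63 in migrated and -2.38 in non-migrated cells. In set 1 it was -1.80 in migrated and -1.67 in non-migrated cells. The median H3K9me3 reads in set 1 were 0 in migrated and 1 in non-migrated cells, and 28 windows had 0 in migrated cells. The set 1 medians thus depend mostly on the value added to each count and on input reads. Their sizes cannot be compared with those of set 2. Both enriched windows on chromosome 5 were enriched in each fraction, at log2 2.77 in migrated and 2.74 in non-migrated cells for AC104117.1 and 2.71 and 2.21 for RP11-281O15.3 in the same order.

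**Figure D4:**
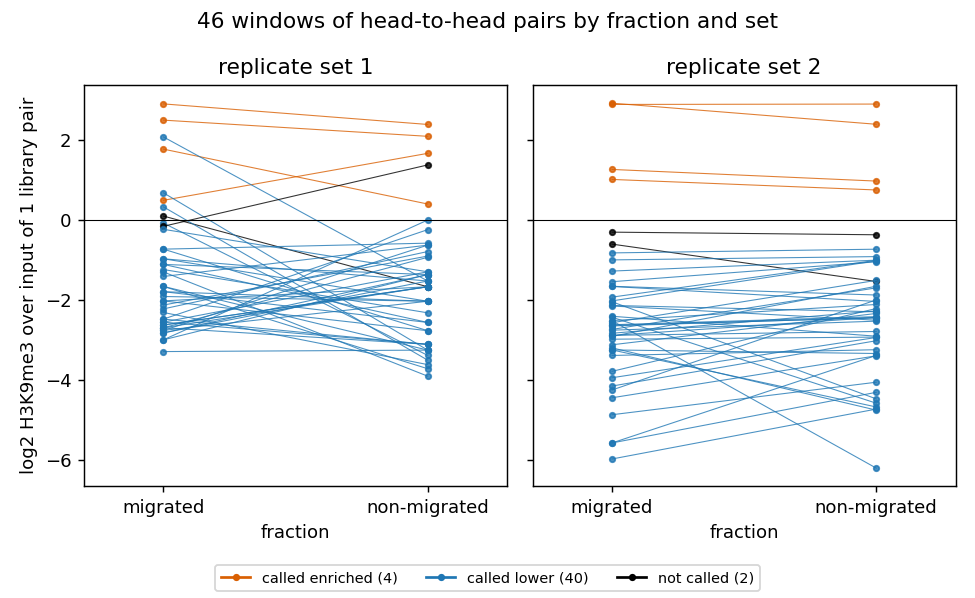
Log2 H3K9me3 over input of each of the 46 windows in migrated (left) and non-migrated cells (right) of replicate set 1 and set 2, with lines joining the same window and colours for the call over both fractions. In set 2 the 4 enriched windows stay above 0 and the other 42 below 0 in both fractions, and in set 1 the lines cross and 37 windows are below 0 in both.

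The windows with 20 or more H3K9me3 reads and the smallest p for the change were NDUFA7, LRRC8E, MSLN, NOP14 and AP000295.9, all with an adjusted p of 0.999. NDUFA7 had 0 and 7 H3K9me3 reads in migrated and 2 and 16 in non-migrated cells, against 18 and 75 input reads for migrated and 6 and 65 for non-migrated cells, a change of log2 -1.33 ± 0.71 (unadjusted p = 0.071). MSLN had 0 and 18 reads in migrated and 1 and 55 in non-migrated cells, against 22 and 119 input reads for migrated and 13 and 155 for non-migrated cells, a change of -0.90 ± 0.51 (unadjusted p = 0.085). NOP14 lay at 1.25 ± 0.77, and LRRC8E, a subunit of the volume-regulated anion channel, lay at -1.35 ± 0.75. The 2 windows with an unadjusted p under 0.05 rested on few reads. RP11-1167A19.2 had 3 and 5 H3K9me3 reads in migrated and 1 and 0 in non-migrated cells (3.06 ± 0.91), and UFC1 had 1 and 6 in migrated and 1 and 2 in non-migrated cells (1.96 ± 0.85).

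Leaving out an H3K9me3 library produced calls for the change in 3 members. RP11-1167A19.2 was called without the set 1 H3K9me3 library of migrated cells (log2 4.14, adjusted p = 0.007, with 0.331% of all windows called) and without that of non-migrated cells (4.14, adjusted p = 0.024, 0.137% of all). SF3B2 and AC010323.1 were called without either set 2 H3K9me3 library, at 3.58 and 3.39 without that of migrated cells (5.16% of all called) and 3.65 and 3.46 without that of non-migrated cells (3.85% of all). In such fits the H3K9me3 part of the change rests on 1 set alone, since the lone H3K9me3 library of the other set is fitted exactly. Leaving out either H3K9me3 library of a set thus gives nearly the same estimate, and the calls of a window are not separate evidence. The spread within a window comes from the inputs, and the H3K9me3 libraries are taken to vary like them. The H3K9me3 reads behind SF3B2 in set 1 were 3 in migrated and 0 in non-migrated cells, while AC010323.1 had the same 3 and 0.

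Pooled reads gave the share of each library that fell into the pairs. The 46 windows took 0.0704% of the H3K9me3 reads of migrated cells and 0.0504% of those of non-migrated cells in set 1, and 0.0920% and 0.101% in the same order in set 2. Relative to input, the log2 ratio of migrated over non-migrated was 0.40 in set 1, with a 95% counting interval (normal on the log scale) of -0.10 to 0.90, and -0.059 in set 2, with -0.20 to 0.085. Both intervals include 0. The 2 enriched pairs supplied 588 of the 906 H3K9me3 reads of migrated cells and 630 of the 1146 of non-migrated cells in set 2.

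Without the enriched pairs the ratio was -0.021 in set 1 and -0.43 in set 2. In the 19 pairs with both windows lower the set 1 ratio was -0.025 (-0.87 to 0.82) and the set 2 ratio -0.53 (-0.77 to -0.29). Pairs with one ID and both windows lower gave -0.14 for set 1 and -0.41 for set 2, and other autosomal windows called lower gave -0.27 and -0.41. The lower share of set 2 reads in migrated cells was thus also found in windows that are in no such pair. The enriched pairs gave 0.39 (-0.54 to 1.31) in set 1 and 0.27 (-0.040 to 0.59) in set 2. These intervals cover counting error only, reads shared by the 2 windows of a pair are counted in both, and the sets were not combined into a test.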

How the data were processed

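H3K9me3 ChIP and input libraries of migrated and non-migrated SiHa cells were compared over promoter windows. The deposited values were log2 read counts per the file headers, 1 value for each window and library. The submitters' processing notes name hg19, FastQC 0.11.5, Bowtie2 2.2.9 and SAMtools 1.3, and duplicates were removed in set 1 per the labels' protocols. No source used here names the program that counted reads. The values were whole reads on the log2 scale plus 1 constant per library, with 0 reads entered as log2 of 0.9. After removal of the constant, 100% of values were whole within 0.01, and these reads were used.

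A count test had been planned. Because the deposited unit is log2, limma 3.58.1 (R 4.3.3) was run instead, on log2 of reads plus 0.5 with voom precision weights and TMM scaling (30% of ratios and 5% of levels trimmed). Windows needed the equivalent of 10 reads in a median library in 2 libraries and 15 reads in total, which left 36440. The model held replicate set, ChIP against input, their product, fraction, and fraction by ChIP (2 residual and 33.1 prior degrees of freedom). Sets were kept as a block because the series calls them paired. As a check, same-numbered libraries deviated from their group means with r = 0.147 (H3K9me3) and r = 0.469 (input) across windows. Differences between partners were fitted over 2792 neighbouring pairs with starts within 2000 bases. A planned comparison with overlapping same-strand pairs could not be made, since 0 such pairs exist, and facing starts were used. The scripts were tested on simulated data. Member pairs, gene lists and tests were chosen with earlier results of these data known. Pairs named are up to 10 highest with both windows enriched, the 10 lowest with both lower, and the pairs with the smallest p for the difference between windows. Windows named for the change between fractions are the 5 smallest p with 20 or more H3K9me3 reads, and the others named were chosen after their values were seen.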

Additional observations from a re-analysis of the deposited data

How the results depend on the processing

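The direction of H3K9me3 over input was kept by all 44 called windows in every alternative, and 30 of them kept their call throughout. Scaling moved the levels. With the deposited constants 4.35% of member windows and 4.35% of pairs were enriched, against 0.933% of all tested windows. The medians were then log2 -3.08 in member windows and -1.29 in other windows, and 0% of pairs differed between partners. Median-of-ratios scaling put other windows at -0.44. Other windows lay at -0.038 without a filter and at -0.0062 with a mean of at least 20 reads. The latter filter kept 30 member windows and gave 13.3% of them and 14.3% of pairs enriched, against 22.6% of all tested windows. Without precision weights 0% of pairs differed. The cause of these shifts was not tested, beyond the fewer windows that the stricter filter leaves.

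Leaving out each library in turn gave 76.1% to 89.1% of windows lower, 60.9% to 87.0% of pairs with both windows lower, 4.35% to 8.70% of windows and of pairs enriched, a median of other windows between -0.36 and -0.040, 0% to 17.4% of pairs differing between partners, and 0% to 4.35% of windows changed between fractions. The 76.1% of windows lower came without the set 1 H3K9me3 library of non-migrated cells (60.9% of pairs) and without the set 2 input of migrated (65.2% of pairs) or of non-migrated cells (60.9% of pairs). The 17.4% of differing pairs came without the set 1 H3K9me3 library of migrated cells, when 19.8% of all neighbouring pairs were called. The share was 13.0% without the set 2 H3K9me3 library of non-migrated cells (18.2% of all) and 8.70% without that of migrated cells (10.8% of all). Without the replicate block, with the sets not treated as pairing, 82.6% of member windows were lower (33.8% of all tested windows) and 8.70% enriched (15.9% of all). In that fit 73.9% of pairs had both windows lower, and 4.35% of pairs differed, against 12.2% of all neighbouring pairs. Of the member windows 0% changed between fractions. Dropping the block lost the calls of ALDH3B1 (limma adjusted p = 0.083) and CCDC56 (0.055).

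Partners differed in 6.67% of pairs with starts up to 300 bases apart, in 0% of wider pairs and in 0% without chromosome 19, where GAPDHS lies. Alternatives added after seeing the data were pairs of any ID, with 5.45% both enriched, 0.758% in opposite directions and other windows at -0.26, and members without the 2 enriched pairs, with 0% enriched by construction and a set 2 share ratio of -0.43. Depth is one limit. The set 1 H3K9me3 libraries had a median of 0 reads (migrated) and 1 read (non-migrated) in these windows, and the size of change that could be detected between fractions was not measured. No member belonged to more than 1 pair, so restricting pairs to unshared windows left every value as it was.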

Other observations

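Among 215 tested head-to-head pairs of any ID spaced more widely than the rule allows, with starts over 1000 and up to 2000 bases apart, both windows were lower in 49.3% and both enriched in 9.77%. Their windows share 1213 to 2097 bases, and the median absolute difference between partners was 0.18 on the log2 scale. A difference in calls from the 23 pairs was not tested.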
